A study of Mus musculus with 34 samples.

Results

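The genes described here are 31 genes of cholesterol synthesis, sterol sensing, cholesterol transport and cholesterol efflux. They were listed by name for their known roles, and for each the RefSeq transcript with the highest mean over the 14 RNA-Seq libraries was taken. Of the 31 genes, 30 had a row among the 23109 genes of the libraries, and *Hmgcs1*, which makes HMG-CoA early in the pathway, had no level analysed here. Levels are given as RPKM, which are reads scaled to transcript length and to library size, so that different genes can be compared per length.

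All libraries came from brown preadipocytes of C57BL/6J newborn mice immortalized with SV40T, which the labels describe as GR-flox/flox, that is, with a floxed glucocorticoid receptor gene in every group. The labels also name a control or a Cre vector for such cells, and which of them these libraries received is not given in the sources used here, so whether the receptor was intact is not known for cells induced with a mix that held its ligand dexamethasone. In the first experiment, retrovirus-infected cells stably expressing histone H3.3, either wild-type (WT) or with the K36M mutation, were sequenced at D0, D2 and D7 of adipogenesis. In the second, WT and K36M cells also carried ectopic PPARγ and received DMSO or the PPARγ ligand rosiglitazone (Rosi). The study's methods give both treatments the same length of 24 h, whereas the labels give DMSO the time 0 and Rosi 24 h. Should the labels be right, ligand and time in culture cannot be told apart. In the third, cells with a control (Ctrl) or *Nsd2* knockdown (KD) shRNA were sequenced at D0 and D2. *Nsd2* encodes a methyltransferase for lysine 36 of histone H3, the residue that K36M replaces. Each condition had 1 library, so no comparison of 2 libraries has a replicate check, and fewer cells of a type and less RNA per cell cannot be told apart.

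Cholesterol is built from acetyl-CoA through mevalonate, isoprenoids, squalene and lanosterol. When membrane sterols are low, Scap carries the transcription factor precursor Srebp2 (*Srebf2*) from the endoplasmic reticulum to be processed, and the genes of synthesis are then switched on, while Insig1 and Insig2 hold Scap back when sterols are high. Oxysterols activate the nuclear receptors LXRα (*Nr1h3*) and LXRβ (*Nr1h2*), whose classic targets include the cholesterol exporters *Abca1* and *Abcg1*. Preadipocytes that become adipocytes store lipid in droplets and express *Nr1h3*, a known target of PPARγ.

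Promoter windows of RefSeq, 250 bases before to 50 bases after the start site, were held for 25 of the 31 genes, in 32 windows. The windows of *Abca1*, *Insig1* and *Hsd17b7* are shown because these efflux, sensing and synthesis genes are among those with the largest ratios in the comparisons that follow. Each was found once in mm9 and is written 5′ to 3′ on the strand of the gene, with motif matches in capitals. *Abca1* lies on chr4:53172718-53173017 (minus strand), *Insig1* on chr5:28397702-28398001 (plus strand) and *Hsd17b7* on chr1:171899287-171899586 (minus strand).
Abca1: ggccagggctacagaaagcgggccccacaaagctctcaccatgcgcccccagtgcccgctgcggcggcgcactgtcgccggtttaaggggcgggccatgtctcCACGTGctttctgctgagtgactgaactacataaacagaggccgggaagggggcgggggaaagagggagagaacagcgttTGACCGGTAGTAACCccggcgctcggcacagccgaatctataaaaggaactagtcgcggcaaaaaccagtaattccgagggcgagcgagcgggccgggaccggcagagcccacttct
Insig1: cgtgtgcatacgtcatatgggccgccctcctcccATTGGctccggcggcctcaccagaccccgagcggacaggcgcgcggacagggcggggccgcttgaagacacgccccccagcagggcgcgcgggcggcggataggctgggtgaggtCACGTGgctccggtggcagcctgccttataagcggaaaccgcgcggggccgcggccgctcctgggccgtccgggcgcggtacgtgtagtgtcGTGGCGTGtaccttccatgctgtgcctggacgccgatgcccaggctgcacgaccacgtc
Hsd17b7: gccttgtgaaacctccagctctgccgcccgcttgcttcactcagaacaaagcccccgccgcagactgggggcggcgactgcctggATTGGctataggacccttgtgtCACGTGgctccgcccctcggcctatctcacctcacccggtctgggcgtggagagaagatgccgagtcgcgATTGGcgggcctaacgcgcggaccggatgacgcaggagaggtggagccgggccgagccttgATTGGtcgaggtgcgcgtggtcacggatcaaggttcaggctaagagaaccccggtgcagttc
The motifs were searched on both strands. The capitals mark the E-box CACGTG, which binds Srebp and many other helix-loop-helix factors, in all 3 windows, beginning 147, 101 and 143 bases before the start site. In *Abca1* they also mark a match to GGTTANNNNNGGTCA, an LXR element of the kind called DR4, read on the opposite strand from -67 to -53. *Abca1* was the only gene of the 25 with this match, which was in 1 of the 32 windows and in 0.0487% of 32851 windows of all genes. A stricter DR4 with both elements perfect, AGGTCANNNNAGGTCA, was in 0 of the 32 windows and in 0.0152% of all windows. In *Insig1* they mark a match to CACNCCAC, a form like the sterol response element, on the opposite strand from -9 to -2. This form was in 3 of the 32 windows (*Hmgcs1*, *Acat2*, *Insig1*) against 6.24% of all windows. The sequence CCAAT, bound by NF-Y, is marked on the opposite strand 1 time in *Insig1* and 3 times in *Hsd17b7*. CCAAT was in 20 of the 32 windows against 37.4% of all windows, and the E-box was in 6 of the 32 against 7.15%. A match of letters describes the window and does not show binding.

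Mapped reads ranged from 12213559 to 24365867 per library, and the lowest of the 420 values of the 30 genes rested on 14 reads. Summed over 7 adipocyte markers, RPKM ranged from 34.2 to 3705, and over 8 brown preadipocyte markers from 54.2 to 643. *Ucp1*, the uncoupling protein that defines mature brown fat, was at most 0.194 in any library, so this marker was near 0 also in the libraries of D7. The markers of other cell types were low in all libraries, with summed RPKM of at most 3.11 for macrophages, 2.47 for endothelium and 0.388 for skeletal muscle. *Nsd2* had an RPKM of 19.9 and 29.0 in Ctrl cells at D0 and D2, and 5.85 and 7.01 in KD cells. A gene was called at a ratio over 2-fold when its RPKM was at least 1 in either library. Intervals beside log2 ratios are 95% Clopper-Pearson intervals of the reads recovered from the RPKM, and they cover counting error only.

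For 6 of the 30 genes, at least 20% of the 31-base words of the transcript occurred at more than 1 place in the mm9 genome. These were *Idi1* (84.6%), *Fdps* (82.1%), *Acat2* (49.6%), *Insig1* (47.2%), *Ggps1* (31.7%) and *Fdft1* (28.0%), and no other gene exceeded 2.97%. Their levels are uncertain, since reads in such words could have been assigned to a copy or left out. *Idi1*, which isomerizes isopentenyl diphosphate, had an RPKM of 0.31, 0.84 and 1.18 in WT cells at D0, D2 and D7 and of 0.246, 0.947 and 1.11 in K36M cells, but between 5.24 and 32.6 in the 8 libraries of the other 2 experiments. Whether the handling of repeated sequence differed between experiments was not tested.

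**Figure D1:**
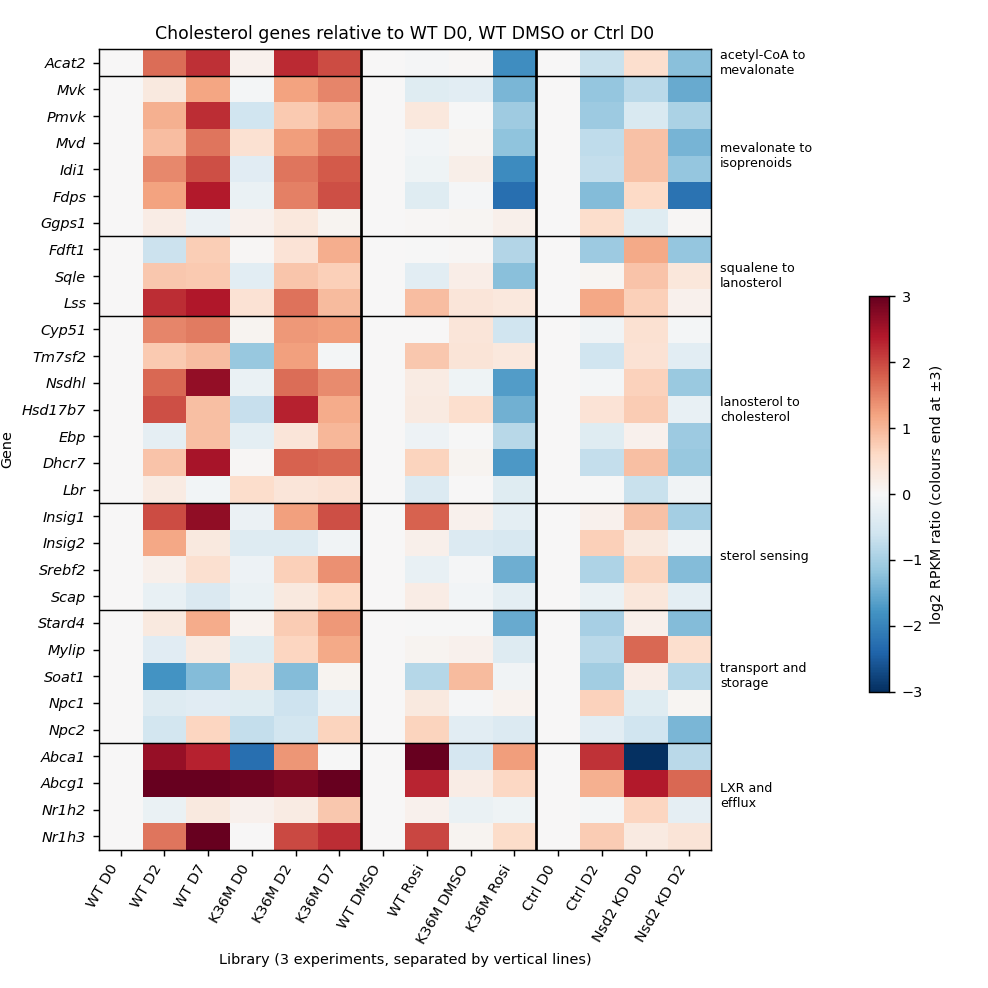
Log2 RPKM ratio of the 30 genes (rows, grouped by role) in each of the 14 libraries (columns) to WT D0, WT DMSO or Ctrl D0, the first control library of each experiment; red is higher and blue is lower. Genes of synthesis are mostly red at D2 and D7 in WT and K36M cells. They are mostly blue in K36M cells with Rosi and, at D2, in Ctrl cells as in KD cells.

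From D0 to D2 of adipogenesis, genes of every stage of cholesterol synthesis were higher in WT cells, as were both exporters. Of 29 genes compared, 12 were over 2-fold higher against 9.38% of all genes, and 1 was over 2-fold lower against 17.3% of all genes. The median log2 ratio was 0.80 for these genes and -0.01 for all genes. In K36M cells, 14 of 28 genes were over 2-fold higher against 10.2% of all genes and 1 was over 2-fold lower against 11.2%, with medians of 1.08 and -0.07. Of the 16 genes of synthesis compared, 7 were over 2-fold higher in WT cells and 11 in K36M cells, with none over 2-fold lower in either. The gene over 2-fold lower was *Soat1* in both. *Idi1*, and in K36M cells also *Abcg1*, had RPKM under 1 on both days and did not enter these counts. Beside these changes, the summed RPKM of the adipocyte markers went from 60.2 to 3705 in WT and from 37.4 to 1646 in K36M cells, and the part of cell type in the ratios was not tested.

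Among the early enzymes, *Acat2*, which joins 2 molecules of acetyl-CoA, had an RPKM of 3.22, 10.3 and 14.8 in WT cells at D0, D2 and D7 and of 3.54, 15.1 and 12.5 in K36M cells. *Pmvk*, which phosphorylates phosphomevalonate, had an RPKM of 4.48, 9.37 and 20.9 in WT cells and of 2.96, 7.71 and 9.15 in K36M cells. *Fdps*, which makes farnesyl diphosphate, had an RPKM of 3.34, 7.69 and 17.5 in WT cells and of 2.91, 9.49 and 12.8 in K36M cells. All 3 were thus higher on each later day in WT cells, while in K36M cells the main step lay between D0 and D2. *Mvk* and *Mvd*, the kinase before and the decarboxylase after *Pmvk*, were also higher at D2 and again at D7 in both. *Mvk* was at 5.10, 6.25 and 11.5 in WT cells and at 4.92, 11.8 and 14.1 in K36M cells. *Mvd* was at 4.30, 8.23 and 13.1 in WT cells and at 5.95, 10.3 and 12.7 in K36M cells. *Ggps1*, which leads isoprenoids away from sterols to geranylgeranyl diphosphate, was between 9.89 and 14 in these 6 libraries and was not over 2-fold different in any of the 15 comparisons.

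In the steps from squalene to lanosterol, *Lss* (lanosterol synthase) had an RPKM of 8.20, 37.9 and 43.2 in WT cells and of 11.1, 25.4 and 15.8 in K36M cells. The D2 to D0 log2 ratio of *Lss* was 2.21 (2.07 to 2.35) in WT and 1.20 (1.06 to 1.34) in K36M cells. *Sqle*, the squalene epoxidase, stood at 19.3, 33.6 and 33.4 in WT cells and at 15.4, 34.6 and 31.4 in K36M cells. *Lss* and *Sqle* were both higher at D2 than at D0. *Fdft1*, the squalene synthase just before them, was not over 2-fold different at D2 in either, with D2 to D0 log2 ratios of -0.66 in WT and 0.36 in K36M cells. Its RPKM was 8.79, 5.58 and 14.7 for WT against 9.08, 11.7 and 18.7 for K36M.

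Of the enzymes after lanosterol, *Hsd17b7*, a 3-keto sterol reductase, was higher at D2 and lower again at D7. Its RPKM was 4.51, 17.2 and 8.39 in WT cells against 2.77, 22.2 and 9.74 in K36M cells, a log2 ratio at D2 over D0 of 1.94 (1.78 to 2.09) and 3.00 (2.80 to 3.20). *Nsdhl*, which helps remove the C4 methyl groups, had an RPKM of 4.11, 13.5 and 25.6 in WT cells and of 3.56, 13.2 and 11.1 in K36M cells. The other enzymes of this stage took different courses. *Cyp51*, the lanosterol demethylase, was at 12.2, 33.9 and 36.1 in WT cells and at 13, 30.1 and 29.0 in K36M cells. *Dhcr7*, which performs the last reduction in one branch, was at 2.09, 3.77 and 11.7 in WT cells and at 2.13, 7.08 and 6.92 in K36M cells. *Ebp*, the sterol isomerase, was at 9.61, 8.0 and 17.9 in WT cells and at 7.90, 12.3 and 19.2 in K36M cells. Of these, *Dhcr7* and *Ebp* had their highest WT level at D7, and *Cyp51* was already near its D7 level at D2. The 2 enzymes that can reduce the C14 double bond differed. *Tm7sf2* was low, at 1.26, 2.19 and 2.39 in WT cells and at 0.579, 2.97 and 1.22 in K36M cells, and its D2 to D0 log2 ratio was 0.80 in the first and 2.36 (1.55 to 3.24) in the second. *Lbr*, which also anchors the nuclear lamina, lay between 13.1 and 19.7 in all 6 libraries.

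The sensing genes split by member. *Insig1* had an RPKM of 6.59, 25.6 and 41.6 in WT cells and of 5.86, 15.6 and 25 in K36M cells. *Insig2* was at 15.8, 35.2 and 19.3 in WT cells but at 12.1, 12 and 14.8 in K36M cells. *Srebf2* was at 22.6, 25.2 and 31.4 in WT cells and at 20.3, 37.2 and 58.1 in K36M cells. The D2 to D0 log2 ratio of *Insig2* was thus 1.15 (1.03 to 1.28) for WT against -0.01 for K36M, and *Srebf2* was not over 2-fold different between neighbouring days in either. *Scap* had log2 ratios between -0.23 and 0.51 in these 4 comparisons of days.

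In transport and storage, *Soat1*, which esterifies cholesterol for storage, went against the genes of synthesis. Its RPKM was 25.6, 7.34 and 10.4 in WT cells against 33.4, 10.4 and 27.2 in K36M cells, so that it was low at D2 in both and high again at D7 in K36M cells. *Npc2*, which hands cholesterol out of lysosomes together with *Npc1*, was the most abundant of the 30 genes in these libraries, at 115, 78.3 and 180.5 in WT cells against 70.0, 78.1 and 182 in K36M cells. *Npc1* lay between 13 and 19.9 and *Stard4*, a cytosolic sterol carrier, between 5.04 and 12.4 in the same 6 libraries. *Mylip*, a ubiquitin ligase that removes lipoprotein receptors and is induced by LXR, was at 5.61, 4.42 and 6.74 in WT cells against 4.39, 8.75 and 12.3 in K36M cells.

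*Abca1* (chromosome 4 from 53043659 to 53172767, mm9) had an RPKM of 10.9, 66 and 53.5 in WT cells at D0, D2 and D7 and of 2.25, 27.2 and 10.7 in K36M cells. *Nr1h3* was at 2.13, 6.48 and 22.2 in WT cells and at 2.15, 8.46 and 9.81 in K36M cells. *Abcg1* was low, at 0.129, 1.37 and 5.55 in WT cells and at 0.969, 0.892 and 3.19 in K36M cells. *Abca1* was thus lower in K36M cells on each day, although its D2 to D0 log2 ratio was 2.6 (2.54 to 2.67) in WT and 3.59 (3.45 to 3.74) in K36M cells. *Nr1h2* lay between 11.2 and 22.5 in the 6 libraries and was not over 2-fold different in any of the 15 comparisons.

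From D2 to D7, 8 of 30 genes were over 2-fold higher in WT cells against 15.7% of all genes, and 1 was over 2-fold lower against 5.08%. The 8 genes were *Abcg1*, *Nr1h3*, *Dhcr7*, *Fdft1*, *Npc2*, *Fdps*, *Pmvk* and *Ebp*, and the lower one was *Hsd17b7*. In K36M cells, 3 of 30 were over 2-fold higher (*Abcg1*, *Soat1*, *Npc2*) and 3 over 2-fold lower (*Abca1*, *Tm7sf2*, *Hsd17b7*), against 15.7% and 7.02% of all genes. The median of the 17 genes of synthesis was 0.52 for WT and -0.03 for K36M. Cell type markers moved between these days too. Summed RPKM of the brown preadipocyte markers went from 86.0 to 311.8 for WT, with 6 of 8 over 2-fold higher, and from 154.4 to 642.6 for K36M, with 5 of 8. That of the adipocyte markers went from 3705 to 3644 for WT but from 1646 to 230.4 for K36M. Most of this sum was *Fabp4*, at 3249 and 2644 in WT cells and at 1473 and 142.9 in K36M cells. Of 6 adipocyte markers compared, 2 (*Adipoq*, *Plin1*) were over 2-fold higher and 0 lower for WT. For K36M, 0 were over 2-fold higher and 3 (*Fabp4*, *Cidec*, *Pparg*) lower. The part of cell type in these ratios was not tested.

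**Figure D2:**
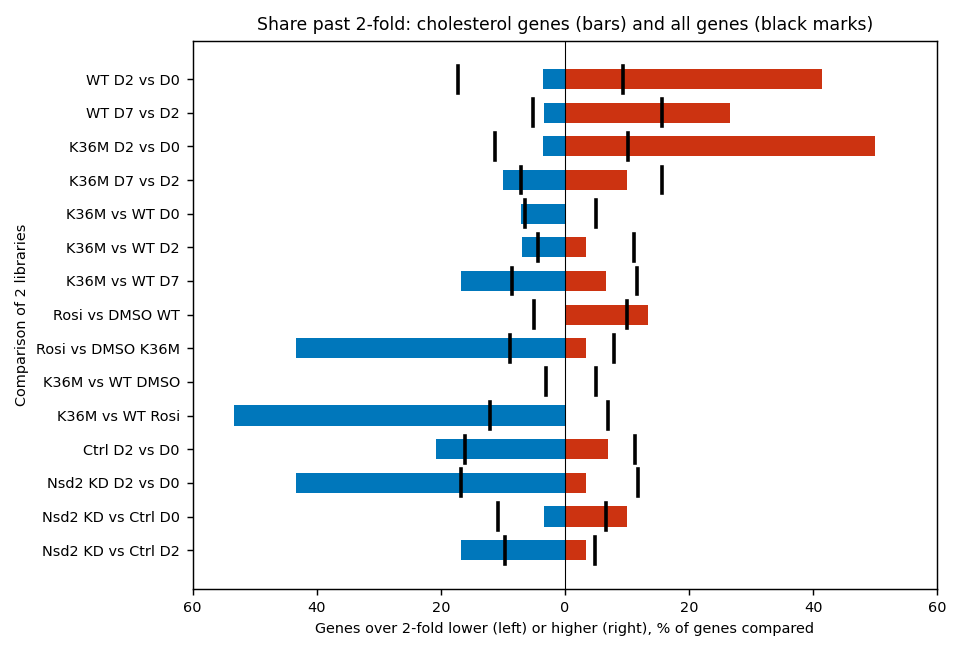
Share of the cholesterol genes (bars) and of all genes compared (black marks) that were over 2-fold higher (right) or lower (left) in each of 15 comparisons of 2 libraries, in percent. The bars exceed the marks most for higher genes from D0 to D2 in WT and K36M cells and for lower genes with Rosi in K36M cells, in K36M against WT cells with Rosi and from D0 to D2 in KD cells.

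Set side by side on the same day, most of these genes, like most of all genes, were within 2-fold between K36M and WT. The exporter *Abca1* was over 2-fold lower in K36M cells on each day. At D0, 0 of 28 genes were over 2-fold higher in K36M cells against 5.02% of all genes, and 2 (*Abca1*, *Tm7sf2*) were over 2-fold lower against 6.36%. At D2, 1 of 29 (*Fdft1*) was over 2-fold higher against 11.2% of all genes, and 2 (*Insig2*, *Abca1*) were over 2-fold lower against 4.37%. At D7, 2 of 30 (*Soat1*, *Scap*) were over 2-fold higher against 11.7%, and 5 (*Abca1*, *Lss*, *Nsdhl*, *Pmvk*, *Nr1h3*) were over 2-fold lower against 8.46%. The K36M to WT log2 ratio of *Abca1* was -2.27 (-2.42 to -2.13) at D0, -1.28 (-1.33 to -1.22) at D2 and -2.32 (-2.41 to -2.24) at D7. *Scap*, which carries Srebp precursors, was at 17.8 in WT and 36.2 in K36M cells at D7. The log2 ratio of *Soat1* was 0.38, 0.50 and 1.38, and that of *Lss* 0.43, -0.57 and -1.45. Beside these, the summed RPKM of the adipocyte markers was 3644 in WT and 230.4 in K36M cells at D7, and the part of fewer adipocytes in the differences at D7 was not tested.

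With Rosi, *Abca1*, *Abcg1* and *Nr1h3* were over 2-fold higher in WT cells, where genes of synthesis were within 2-fold. In K36M cells, 10 of the 17 genes of synthesis were over 2-fold lower. In WT cells, 4 of 30 genes (13.3%) were over 2-fold higher, near the 9.96% of all genes, and 0 were over 2-fold lower against 5.05%. In K36M cells, 1 of 30 was over 2-fold higher against 7.9% of all genes and 13 were over 2-fold lower against 8.85%. The median log2 ratio was 0.10 in WT cells, where it was 0.06 for all genes, and -0.86 in K36M cells, where it was -0.03 for all genes. The summed RPKM of the adipocyte markers was higher with Rosi in both, at 216.4 and 3165 in WT cells and at 152.3 and 1245 in K36M cells, and its part in these ratios was not tested.

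*Abca1* had an RPKM in WT cells of 1.62 with DMSO and 26.5 with Rosi, and of 1.15 and 3.90 in K36M cells. *Abcg1* was at 1.17 and 5.74 in WT cells and at 1.38 and 1.81 in K36M cells. *Nr1h3* was at 4.46 and 17.8 in WT cells and at 4.69 and 6.53 in K36M cells. The 3 genes were each over 2-fold higher in WT cells, with log2 ratios of 4.03 (3.88 to 4.19), 2.29 (2.03 to 2.57) and 2.00 (1.75 to 2.25), and in K36M cells *Abca1* alone passed 2-fold, at 1.76 (1.55 to 1.97). *Insig1* was the fourth gene over 2-fold higher in WT cells, at 11.8 with DMSO and 40.3 with Rosi, while it was at 13 and 9.63 in K36M cells. *Nr1h2* was at 14.8 and 16.2 in WT cells against 12.8 and 13.5 in K36M cells.

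Of the 17 genes of synthesis, 16 had a Rosi to DMSO log2 ratio below 0 in K36M cells and 10 were over 2-fold lower, against 9 below 0 and 0 over 2-fold lower in WT cells. *Fdps* had an RPKM of 19.6 and 15.3 with DMSO and Rosi in WT cells and of 19.1 and 4.12 in K36M cells. *Hsd17b7* was at 5.5 and 6.61 in WT cells and at 7.84 and 2.02 in K36M cells. *Dhcr7* was at 4.95 and 7.86 in WT cells and at 5.23 and 1.49 in K36M cells. These DMSO levels were within 2-fold of each other and the Rosi levels were apart. *Srebf2*, the activator of these genes, was at 42.4 and 36.4 in WT cells and at 41.4 and 15.3 in K36M cells, with Rosi to DMSO log2 ratios of -0.22 and -1.43 (-1.54 to -1.33). *Stard4* was at 8.06 and 8.0 in WT cells and at 7.95 and 2.81 in K36M cells. *Soat1* was at 14.2 and 7.86 in WT cells and at 27.5 and 13.3 in K36M cells, lower with Rosi in both. The 10 genes of synthesis over 2-fold lower were *Fdps*, *Idi1*, *Hsd17b7*, *Acat2*, *Dhcr7*, *Nsdhl*, *Sqle*, *Mvd*, *Pmvk* and *Mvk*. *Idi1* was at 19.4 and 17.7 in WT cells and at 22 and 5.24 in K36M cells, and *Acat2* at 13.5 and 13.1 and at 13.9 and 3.73. *Nsdhl* was at 9.80 and 11.6 in WT cells and at 8.92 and 3.06 in K36M cells, and *Sqle* at 23.1 and 18.6 and at 26.3 and 9.60. In each of these the K36M Rosi library was the lowest of the 4, which follows in large part from choosing genes by their lower level in that library. The same held for the mevalonate enzymes. *Mvk* was at 15.2 and 11.9 in WT cells and at 12.2 and 5.86 in K36M cells, *Pmvk* at 9.51 and 11.8 and at 9.48 and 4.51, and *Mvd* at 14.6 and 13.8 and at 15.3 and 6.32. *Lss*, *Cyp51*, *Ebp*, *Fdft1*, *Tm7sf2*, *Lbr* and *Ggps1* were not over 2-fold lower in K36M cells with Rosi, with log2 ratios from -0.95 to 0.09. Without the 6 genes of repeated sequence, a choice made after seeing the data, 10 of 24 genes were over 2-fold lower and the median was -0.67.

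**Figure D3:**
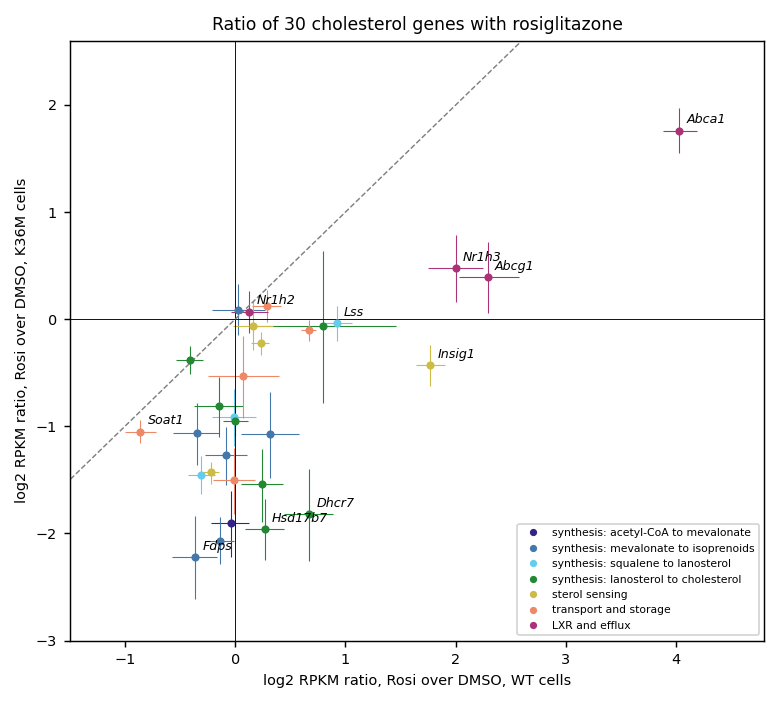
Log2 RPKM ratio of Rosi to DMSO for each of the 30 genes in WT cells (horizontal axis) and K36M cells (vertical axis), with 95% counting intervals and colours by role; the dashed line marks equal ratios. Of the 30 points 28 lie below the line, and the share of all genes below it was not counted.

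Between K36M and WT cells with DMSO, 0 of 30 genes were over 2-fold higher against 5.09% of all genes and 0 were over 2-fold lower against 3.11%, with *Soat1* farthest apart at 14.2 in WT and 27.5 in K36M cells. Between the Rosi libraries, 0 genes were over 2-fold higher in K36M cells against 7.02%, and 16 were over 2-fold lower against 12.1%. The lowest ratios were those of *Abca1* at -2.77 (-2.90 to -2.63), *Dhcr7* at -2.40 (-2.85 to -1.98) and *Insig1* at -2.06 (-2.24 to -1.89). *Npc2* was also among the 16, at 72.1 for WT against 34.2 for K36M. The difference between the Rosi log2 ratios, K36M minus WT, was below 0 for 28 of 30 genes with a median of -1.05, and with 1 library per condition it was not tested. This difference was not counted for all genes, so whether it is particular to these genes is not known. The K36M Rosi library takes part in the comparison with DMSO and in that with WT, so they are not separate evidence.

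In the third experiment, most genes of synthesis were lower at D2 than at D0, in Ctrl cells as in KD cells, where 13 and 15 of the 17 had a log2 ratio below 0. From D0 to D2 in Ctrl cells, 2 of 29 genes (*Abca1*, *Lss*) were over 2-fold higher against 11.3% of all genes, and 6 (*Fdps*, *Mvk*, *Pmvk*, *Fdft1*, *Soat1*, *Stard4*) were over 2-fold lower against 16.1%. With a pseudocount of 1 added to each RPKM the 6 became 2, *Fdps* and *Mvk*. *Mvk* was at 14.1 and 6.34 and *Pmvk* at 8.21 and 3.84 on these days, while *Lss* was at 11.1 and 24.7. In KD cells, 1 of 30 (*Abca1*) was over 2-fold higher against 11.8%, and 13 were over 2-fold lower against 16.8%. The medians were -0.31 in Ctrl and -0.84 in KD cells, and 0.07 and 0.04 for all genes. The summed RPKM of the adipocyte markers went from 42.3 to 1427 in Ctrl cells and from 34.2 to 58.1 in KD cells, and its part in the ratios was not tested. Without the 6 genes of repeated sequence, 4 of 23 were over 2-fold lower in Ctrl and 8 of 24 in KD cells.

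At D0, 3 of 30 genes (*Abcg1*, *Mylip*, *Fdft1*) were over 2-fold higher in KD than in Ctrl cells against 6.61% of all genes, and 1 (*Abca1*) was over 2-fold lower against 10.8%. At D2, 1 (*Mylip*) was over 2-fold higher against 4.88%, and 5 (*Abca1*, *Insig1*, *Npc2*, *Nsdhl*, *Lss*) were over 2-fold lower against 9.57%. The median KD to Ctrl log2 ratio was 0.48 at D0 and -0.39 at D2, so KD values lay on both sides of Ctrl, above at D0 and below at D2. *Srebf2* had an RPKM of 47.6 and 25.1 in Ctrl cells at D0 and D2 and of 75.7 and 19.4 in KD cells. *Insig1* was at 11.7 and 12.8 in Ctrl cells and at 21.6 and 5.82 in KD cells. *Fdps* was at 13.9 and 5.70 in Ctrl cells and at 21.0 and 3.00 in KD cells. All 3 were highest in KD cells at D0 and lowest in KD cells at D2. This order of the 4 libraries, noticed in the data, was seen for 14 of the 30 genes and 9 of the 17 genes of synthesis, against 7.5% of 12416 genes. It takes rank alone, and some of its differences were within counting error. KD to Ctrl log2 ratios were -0.07 (-0.34 to 0.19) for *Fdft1* at D2, and at D0 0.14 (-0.10 to 0.37) for *Ebp* and 0.16 (-0.01 to 0.32) for *Stard4*. Among the 14, *Acat2*, *Idi1*, *Fdps*, *Fdft1* and *Insig1* are of repeated sequence. The order was seen for *Fdft1*, at 9.53 and 4.49 in Ctrl cells and at 20.9 and 4.27 in KD cells, and for *Mvd*, at 10.4 and 6.11 and at 19.3 and 3.99. It was also seen for *Dhcr7*, at 4.98 and 3.03 in Ctrl cells and at 9.37 and 2.27 in KD cells, and for *Nsdhl*, at 6.98 and 6.67 and at 11.3 and 3.24. *Acat2* (12.7, 7.98, 18.0 and 5.37 for Ctrl D0, Ctrl D2, KD D0 and KD D2), *Idi1* (17.8, 10.8, 32.6 and 7.92), *Stard4* (10.2, 5.09, 11.4 and 4.12) and *Ebp* (8.72, 6.73, 9.59 and 4.10) followed it too, as did *Hsd17b7*, *Scap* and *Nr1h2*. The genes of synthesis without it were *Mvk*, *Pmvk*, *Ggps1*, *Sqle*, *Lss*, *Cyp51*, *Tm7sf2* and *Lbr*, and *Sqle*, for example, was at 20.7 and 21.6 in Ctrl cells and at 37.3 and 26.1 in KD cells. *Soat1* was at 19.9 and 9.69 in Ctrl cells and at 22.7 and 11.0 in KD cells. *Npc2* was at 43.3 in Ctrl and 20.8 in KD cells at D2, and *Lss* at 24.7 and 12.1. *Abca1* stood apart from these genes, at 7.09 and 31.9 in Ctrl cells and at 0.682 and 4.05 in KD cells. Its KD to Ctrl log2 ratio was -3.38 (-3.66 to -3.11) at D0 and -2.98 (-3.09 to -2.87) at D2. *Mylip* was at 4.94 and 2.83 in Ctrl cells and at 16.3 and 6.95 in KD cells. *Abcg1* was at 0.444 and 0.929 in Ctrl cells and at 2.30 and 1.46 in KD cells, so that at D0 these 3 known LXR targets did not lie on the same side of Ctrl.

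**Figure D4:**
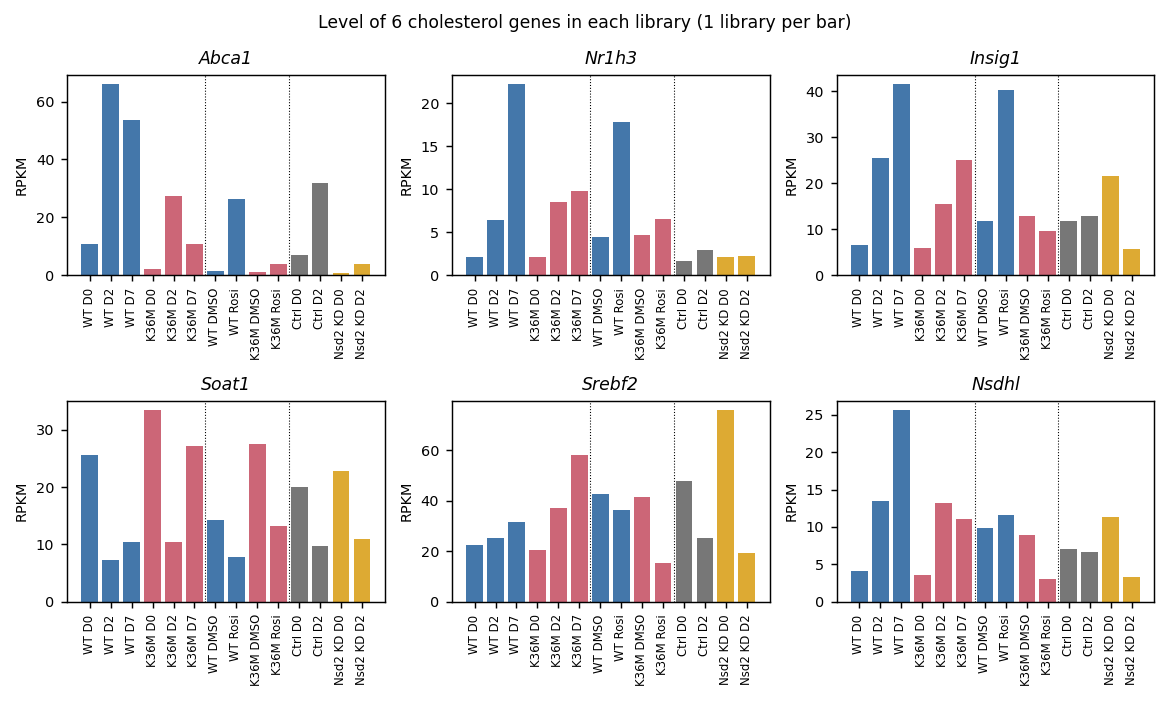
RPKM of *Abca1*, *Nr1h3*, *Insig1*, *Soat1*, *Srebf2* and *Nsdhl* in each of the 14 libraries, 1 library per bar, with dotted lines between the 3 experiments. *Abca1* is lower in K36M than in WT cells and in KD than in Ctrl cells in each pair of bars.

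The change from D0 to D2 was measured in 4 cell populations (WT, K36M, Ctrl and KD), whose spread gave an error for the change that they share. The fit takes them as independent, but WT and K36M cells share the first experiment and Ctrl and KD cells the third. K36M and KD cells also carry the perturbations studied, and the errors and adjusted p given here allow for neither. By limma on log2(RPKM + 0.5) over 8 libraries, 1 of the 30 genes rose against 3.88% of 11799 genes tested, and 1 fell against 6.86%. *Abca1* rose by 2.48 ± 0.26 (SE, n = 4 populations) on the log2 scale, with an adjusted p of 0.0135 by limma, and was higher in 4 of 4 populations. *Soat1* fell by 1.35 ± 0.20 (SE, n = 4 populations), with an adjusted p of 0.0189 by limma, and was lower in 4 of 4. *Nr1h3* was also higher in 4 of 4, by 0.97 ± 0.31 (SE), with an adjusted p of 0.0991 by limma. *Ggps1* was higher in 4 of 4 by 0.32 ± 0.16 (SE), with an adjusted p of 0.219. The other 26 genes took both signs among the 4 populations, and the median change of the 30 genes was 0.13, against 0.03 for all genes tested. The calls of *Abca1* and *Soat1* were lost without WT or Ctrl cells. Without WT cells their adjusted p by limma was 0.0699 and 0.0999, and without Ctrl cells 0.0658 and 0.0805. The changes themselves stayed near their size, at 2.46 and 2.61 for *Abca1* and at -1.22 and -1.46 for *Soat1*.

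The difference of the D0 to D2 change between WT and K36M cells on one side and Ctrl and KD cells on the other was then tested by limma as an interaction, a choice made after seeing the data. It was called for 0 of the 30 genes and for 0% of all genes in the higher and 0% in the lower direction, and the lowest adjusted p of the 30 was 0.148. At an unadjusted p under 0.05 there were 21 of the 30 genes and 2205 of 11799 genes. The difference was above 0 for 26 of 30 genes, with a median of 1.41 against -0.07 for all genes. Among the largest were *Fdps* at 3.24 ± 0.52 (SE, n = 4 populations), *Acat2* at 2.89 ± 0.42 and *Hsd17b7* at 2.58 ± 0.56, with adjusted p of 0.149, 0.148 and 0.176 by limma. Of these, *Fdps* and *Acat2* are of repeated sequence, and whether its handling differed between experiments was not tested. The fit takes WT with K36M cells, and Ctrl with KD cells, as replicates of an experiment, although the cells of each pair differ in perturbation. WT and K36M cells carried H3.3 from a retrovirus, and Ctrl and KD cells an shRNA from a lentivirus. This difference cannot be told apart from any other between the experiments.

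The 2 control populations also started from different levels. At D0, 8 of 29 genes were over 2-fold higher in Ctrl than in WT cells against 7.1% of all genes, and 2 were over 2-fold lower against 15.1%, a comparison chosen after seeing the data. The latter were *Npc2*, at 115 in WT and 53.6 in Ctrl cells, and *Npc1*, at 19.9 and 9.66. Of the 8, *Idi1*, *Fdps* and *Acat2* are genes of repeated sequence, and *Mvk*, *Mvd*, *Dhcr7*, *Srebf2* and *Stard4* are not. *Mvk*, which phosphorylates mevalonate, was at 5.10 in WT and 14.1 in Ctrl cells at D0, and *Srebf2* at 22.6 and 47.6. At D2 they were at 6.25 and 6.34 (*Mvk*) and at 25.2 and 25.1 (*Srebf2*). Other genes were apart at D2, with *Cyp51* at 33.9 in WT and 15.6 in Ctrl cells and *Nsdhl* at 13.5 and 6.67. *Idi1*, of repeated sequence, differed the other way, at 0.84 and 10.8. The genes were not compared as a set between WT and Ctrl cells at D2.

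**Figure D5:**
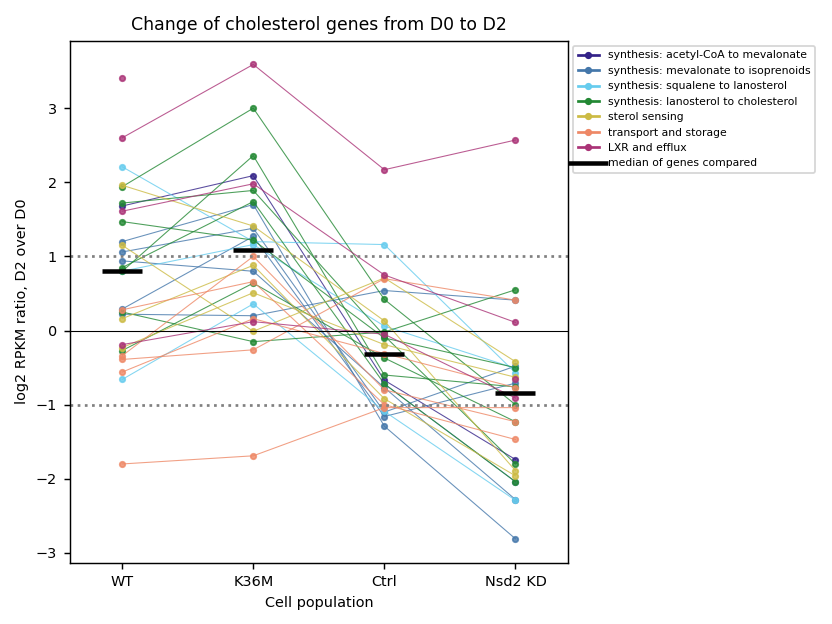
Log2 RPKM ratio of D2 to D0 for each gene compared (points joined by lines, coloured by role) in WT, K36M, Ctrl and *Nsd2* KD cells, with the median as a black bar and dotted lines at 2-fold. The medians are 0.80, 1.08, -0.31 and -0.84, and *Abca1* is above 2-fold in all 4 populations.

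Genes near these in metabolism were counted from fixed lists. Of 26 other sterol pathway genes, 4 of 24 compared were over 2-fold higher and 3 lower at D2 than at D0 of the WT cells, 4 and 2 of 25 in K36M cells, 4 and 3 of 25 in Ctrl cells and 5 and 7 of 24 in KD cells. The shares of all genes over 2-fold higher and lower were 9.38% and 17.3% for WT, 10.2% and 11.2% for K36M, 11.3% and 16.1% for Ctrl and 11.8% and 16.8% for KD. With Rosi the counts were 4 higher and 1 lower of 25 in WT cells, where the shares were 9.96% and 5.05%, and 3 and 4 of 25 in K36M cells, where they were 7.9% and 8.85%. Many of these counts were thus near the share of all genes, and nothing is read from them. The same shares apply to the next list. Of 11 fatty acid synthesis genes, 7 were over 2-fold higher and 2 lower at D2 than at D0 of the WT cells, 5 and 0 for K36M, 4 and 2 in Ctrl cells and 2 and 5 in KD cells. With Rosi, 3 were higher and 1 lower in WT cells against 0 and 4 in K36M cells. *Srebf1*, whose Srebp1c product activates fatty acid synthesis and is itself an LXR target, had an RPKM in WT cells of 29.8 with DMSO and 95.2 with Rosi and of 32.7 and 25.1 in K36M cells.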

How the data were processed

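RNA was purified with Dynabeads, made into NEBNext Ultra II libraries and sequenced on a HiSeq instrument. Per the file headers, the authors deposited RPKM for 29082 RefSeq transcripts in each of 14 libraries, 1 per condition. The submitters' processing notes name CASAVA 1.8.2, SICER and mm9, and the RNA-Seq mapper and counter are not given in the sources used here. The ChIP-Seq samples were not analysed here, and some other genes of the pathway are not reported here.

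Symbols from RefSeq were found for 28436 transcripts (97.8%), and unmatched transcripts kept their identifiers, which gave 23109 genes. Reads were recovered as whole numbers, RPKM values being whole multiples of 1 read: library totals lay within 2.36e-05 of whole numbers, and 15994 of 15997 transcripts of mean RPKM of at least 1 gave whole reads within 0.001 in all libraries. Ratios were called at over 2-fold with RPKM of at least 1 in either library, without a test. The shared D0 to D2 change was fitted with limma 3.58.1 (R 4.3.3) on log2(RPKM + 0.5), with cell population as a block, an intensity trend, a mean RPKM of at least 1 and Benjamini-Hochberg adjustment at 0.05. The unit is not counts, so no count model was the main test. Alternatives were no filter, pseudocounts of 0.1 (limma) and 1, median rescaling, summed transcripts, an interval excluding a ratio of 1, no trend and leaving out each population. Repeated sequence was counted as 31-base words of the transcript in NCBIM37 (mm9). Promoters are from RefSeq (GRCm38.p6 table) and were placed by exact match in NCBIM37. All 30 genes with a row are accounted for, and values are given for each gene over 2-fold different in a comparison described or regulating its step. Marker lists covered brown preadipocytes, adipocytes, macrophages, endothelium and skeletal muscle. The genes and lists were chosen with earlier results of these data known. The scripts were tested on simulated data.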

Additional observations from a re-analysis of the deposited data

Results flagged for a closer look

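Some genes were over 2-fold higher from D0 to D2 in one experiment and over 2-fold lower in the other. For WT against Ctrl cells these were 2 of 28 genes and 0.198% of 11596 genes compared in both, and for K36M against KD cells 5 of 28 genes and 1.68% of 11336. With 1 library per condition, these opposite changes between pairs of populations were not tested one by one. *Pmvk* and *Fdps* had a D2 to D0 log2 ratio of 1.06 and 1.20 in WT cells, but of -1.1 and -1.29 in Ctrl cells. *Acat2*, *Fdps*, *Nsdhl*, *Dhcr7* and *Insig1* had ratios of 2.09, 1.70, 1.89, 1.74 and 1.41 in K36M cells, but of -1.74, -2.81, -1.8, -2.04 and -1.89 in *Nsd2* KD cells. Of these 6 genes *Fdps*, *Acat2* and *Insig1* are of repeated sequence. The 4 populations taken in 2 pairs gave adjusted p by limma from 0.148 to 0.189 for the difference of the 6 genes.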

How the results depend on the processing

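Each condition had 1 library, so no ratio has an error between replicates, and 1 more library per condition could move any call near 2-fold. Beyond the pairing of D0 and D2 by cell population in the limma fit, no paired analysis was possible because no 2 groups share 2 or more replicate numbers. Adding a pseudocount of 1 before the ratio changed the number of genes over 2-fold lower to 0 (WT, D7 against D2), 1 (K36M against WT, D0), 2 (Ctrl, D2 against D0) and 3 (KD against Ctrl, D2), from 1, 2, 6 and 5, and the number over 2-fold higher to 0 (K36M against WT, D2) and 1 (K36M against WT, D7), from 1 and 2. Counting any RPKM above 0 gave 1 gene over 2-fold higher for K36M against WT at D0, from 0. Rescaling by the median ratio, which shifted all genes by 0.12 and -0.05 on the log2 scale in these comparisons, gave 1 gene over 2-fold higher at D7 in K36M against WT cells and 3 over 2-fold lower at D2 in KD against Ctrl cells. Across comparisons the shift ran from -0.11 to 0.12. Leaving out the 6 genes of repeated sequence, chosen after seeing the data, gave 0 genes over 2-fold higher in K36M against WT cells at D2 and 8 over 2-fold lower from D0 to D2 in KD cells, from 1 and 13. In the shared D0 to D2 change by limma, leaving out 1 population at a time gave 0 to 2 genes higher and 0 to 1 lower, with 0 called without WT or without Ctrl cells; few of all genes passed then, 31 and 15. Counts from 184 other combinations of result and alternative stayed within 1.5 times. Of 484 values of single-gene ratios over 2-fold under the alternatives, 35 moved beyond their counting interval. None reversed, but only summed transcripts could have reversed such a ratio. Counting any RPKM above 0 leaves the ratio unchanged, a pseudocount keeps its sign, and the median shifts were too small.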

Other observations

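The enzyme that makes the LXR-activating oxysterol 25-hydroxycholesterol, encoded by *Ch25h*, had an RPKM of 54.3, 1.12 and 4.05 in WT cells at D0, D2 and D7 and of 6.67, 2.71 and 82.4 in K36M cells. It was at 11.1 and 1.47 in Ctrl cells and at 1.40 and 0.879 in *Nsd2* KD cells at D0 and D2. *Ch25h* was lower at D2 than at D0 in each of the 4 populations, in KD cells by less than 2-fold and near an RPKM of 1. At D7 it was higher in K36M than in WT cells. *Abca1*, which oxysterols can induce through LXR, was higher at D2 than at D0 in the same 4 populations, so the D2 to D0 ratios of the genes lay on opposite sides of 1. *Ch25h* is 1 of the 26 other sterol pathway genes, and a link between its level and that of *Abca1* was not tested.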
